A study of Mus musculus with 8 samples.

Results

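The genes described here encode 10 integrin subunits, chosen by name from the count table of brown adipose tissue (BAT) and out of 31053 genes in it. They form 2 sets. The leukocyte set holds 4 genes, Itgam, Itgax, Itgal and Itgb2, and the matrix set holds 6 genes, Itgav, Itgb1, Itgb5, Itga1, Itga5 and Itga6. The other 16 integrin subunit genes are described only where they show how these 10 differ.

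Integrins are surface receptors built from 1 α and 1 β chain, and the pair decides what the cell can hold on to. The β2 chain, encoded by Itgb2, is made by leukocytes and pairs with CD11a (Itgal), CD11b (Itgam) or CD11c (Itgax) to bind ICAMs and, for CD11b and CD11c, complement fragments and fibrinogen. The β1, β5 and αv chains are made by many cell types and bind collagen, laminin, fibronectin and vitronectin in the extracellular matrix.

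RNA was sequenced from BAT of 4 WT mice and 4 Ucp1Δ/Δ mice, which the labels call ATGLKO. Ucp1Δ/Δ mice carry a floxed Pnpla2 gene, which encodes the lipase ATGL, and a Cre transgene under the Ucp1 promoter, so that the deletion is aimed at brown and other thermogenic adipocytes and other cells of the tissue keep the gene. Both groups are of strain C57BL6/J and 10 weeks old per the labels, with no treatment given there, while the study's text gives a different age. The labels name BAT as the tissue but the stromal vascular fraction as the cell type. Brown adipocyte markers summed to between 8840 and 20400 CPM (counts scaled to a common library size) over the 8 libraries, so adipocyte RNA was present in all of them.

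The libraries held between 2017697 and 3115956 counts, and 3 counts in a library correspond to 0.926 to 1.52 CPM, a floor that covers counting error only. Pnpla2 fell from 2890 ± 190 CPM in WT to 470 ± 58.8 CPM in Ucp1Δ/Δ (SD, n = 4 mice each), a log2 change of -2.62 (SE 0.17, adjusted p = 1.97e-07, edgeR). Of 8930 genes with enough counts to test, 1190 (13.3%) were higher in Ucp1Δ/Δ and 682 (7.64%) were lower at an adjusted p under 0.05. In bulk tissue, fewer cells of a type and less RNA per cell cannot be told apart. Each library is labelled as its own mouse, and no batch is labelled.

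The promoters printed are those of Itgam, Itgax and Itgb1. They were planned together with that of Itgb2, which was not found. Each runs from 250 bases before to 50 after the RefSeq start on the gene's strand (GRCm38.p6), at chr7:128062390-128062689, chr7:128129300-128129599 and chr8:128685404-128685703. Capitals mark matches on either strand to GAGGAA, a core bound by the myeloid factor PU.1, or to GGGCGG, a core bound by SP1.
Itgam: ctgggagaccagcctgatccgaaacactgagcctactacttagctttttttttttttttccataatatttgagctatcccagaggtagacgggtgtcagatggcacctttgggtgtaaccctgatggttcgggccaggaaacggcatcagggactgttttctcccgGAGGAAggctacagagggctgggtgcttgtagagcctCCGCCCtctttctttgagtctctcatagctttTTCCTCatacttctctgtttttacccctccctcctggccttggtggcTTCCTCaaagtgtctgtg
Itgax: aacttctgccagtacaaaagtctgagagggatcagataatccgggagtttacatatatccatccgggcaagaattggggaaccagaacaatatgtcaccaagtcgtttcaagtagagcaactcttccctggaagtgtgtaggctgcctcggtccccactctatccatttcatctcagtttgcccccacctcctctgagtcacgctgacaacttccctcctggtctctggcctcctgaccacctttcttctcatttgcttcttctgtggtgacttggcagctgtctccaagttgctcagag
Itgb1: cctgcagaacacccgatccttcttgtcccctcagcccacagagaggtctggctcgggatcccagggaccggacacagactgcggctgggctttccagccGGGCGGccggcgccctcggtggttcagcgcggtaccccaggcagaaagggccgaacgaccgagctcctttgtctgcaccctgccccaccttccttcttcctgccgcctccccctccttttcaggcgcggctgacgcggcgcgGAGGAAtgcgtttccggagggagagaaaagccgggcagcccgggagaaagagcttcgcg
The first motif was present in 28.3% and the second in 35.7% of 32851 RefSeq promoters of this length, so both are common. Itgam held 3 GAGGAA matches and 1 GGGCGG match. Itgb1 held 1 of each, and Itgax held neither. A match is a description of the letters and not of binding, and no match says only that these letters are not in the window. Promoters were found for 7 of the 10 genes, all but Itgal, Itgb2 and Itga6. Of the 4 not printed, Itgav held 2 GAGGAA matches and 1 GGGCGG match, Itga5 held 1 and 2, Itgb5 held 0 and 3, and Itga1 held neither.

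Among the leukocyte set, Itgb2, Itgax and Itgam were each higher in every Ucp1Δ/Δ mouse than in every WT mouse, and Itgal was too low to test. Itgb2, the shared β2 chain, had 0, 1, 0 and 1 counts in the 4 WT mice (0, 0.445, 0 and 0.503 CPM) and 18, 63, 19 and 20 counts in the 4 Ucp1Δ/Δ mice (6.32, 19.5, 7.87 and 8.52 CPM). All WT libraries were at or under the floor, and Ucp1Δ/Δ mouse 2 was the highest. The fitted log2 change was 5.33 (SE 0.69, adjusted p = 5.18e-05, edgeR). With 2 counts in all of WT the fold is loosely bounded, and the pooled ratio was 51.1 with a 95% counting interval of 13.8 to 426. Such intervals cover counting error in the pooled counts and not the spread between mice.

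Itgax, which encodes CD11c, the α chain common on dendritic cells and on some tissue macrophages, had 1, 0, 0 and 1 counts in WT and 31, 72, 26 and 49 counts in Ucp1Δ/Δ. These were at most 0.506 CPM in WT against 10.9, 22.2, 10.8 and 20.9 CPM in Ucp1Δ/Δ. The groups were far apart, with Ucp1Δ/Δ mice 2 and 4 highest. The fitted log2 change was 5.93 (SE 0.59, adjusted p = 4.91e-06, edgeR), and the pooled ratio was 75.7 with a counting interval of 20.7 to 630.

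Itgam, which encodes CD11b, the α chain of complement receptor CR3 on macrophages, monocytes and neutrophils, measured 3.54, 4.89, 2.32 and 6.03 CPM in WT and 15.1, 31.2, 12.0 and 22.1 CPM in Ucp1Δ/Δ. The lowest Ucp1Δ/Δ mouse, mouse 3, was still above the highest WT mouse, mouse 4. The log2 change was 2.30 (SE 0.36, adjusted p = 0.000283, edgeR), a 4.93-fold difference. Gm49368, an annotated gene on the same strand, shares 68.7% of the exon bases of Itgam, so reads in shared exons may have been lost or split. Gm49368 had no counts in WT and 1 or 2 in each Ucp1Δ/Δ mouse.

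Itgal, which encodes CD11a, the α chain of LFA-1 on lymphocytes and other leukocytes, had 2, 2, 3 and 1 counts in WT and 9, 6, 6 and 4 counts in Ucp1Δ/Δ. In CPM the WT mice lay between 0.503 and 1.01 and the Ucp1Δ/Δ mice between 1.70 and 3.16, without overlap. It did not reach the count minimum, and the pooled ratio was 2.66 with a counting interval of 1.16 to 6.82, which leaves out the spread between mice. With all genes of at least 1 count fitted, its log2 change was 1.34 and did not pass (adjusted p = 0.21, edgeR). Itgb2, Itgax and Itgam passed the count minimum through the Ucp1Δ/Δ libraries, since fewer than 4 WT libraries reached it, and their number among tested genes is therefore no support in itself.

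For each of Itgb2, Itgax, Itgam and Itgal the two-sided exact permutation test over mice gave p = 0.0286, the smallest that 4 against 4 mice allows. Non-overlap in this direction was seen for 14.4% of all genes tested.

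**Figure D1:**
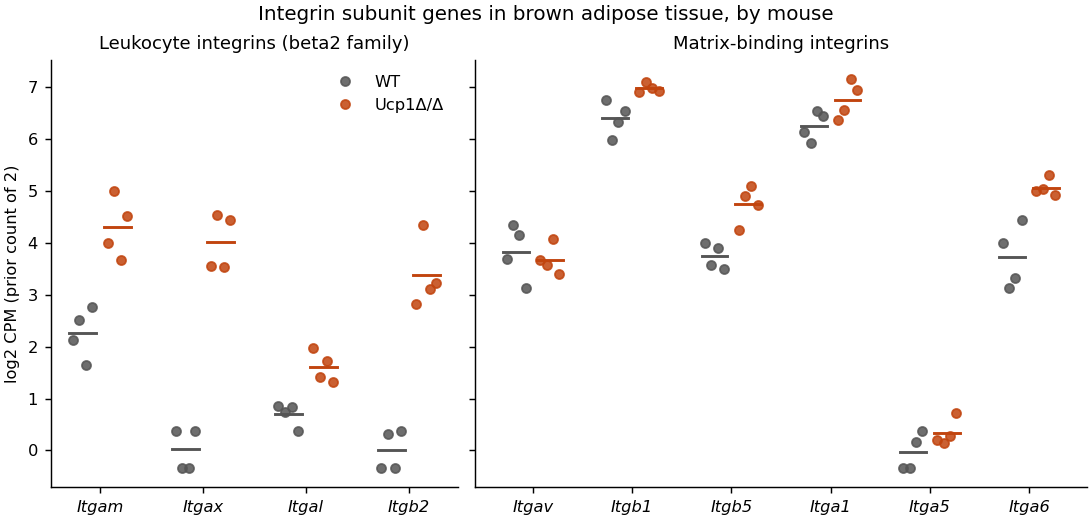
Levels of the 10 integrin subunit genes as log2 CPM with a prior count of 2, 1 point per mouse (grey, WT; orange, Ucp1Δ/Δ; line, mean of 4 mice). The groups do not overlap for Itgam, Itgax, Itgal, Itgb2, Itgb1, Itgb5 and Itga6, and they overlap for Itgav, Itga1 and Itga5; values near 0 rest on 0 to 3 counts.

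In the matrix set, Itga6 and Itgb5 rose, Itgb1 rose with a call that did not hold when most single mice were left out, and Itga1 and Itgav did not pass. Itga6 encodes α6, a laminin receptor chain. It measured 15.2, 8.0, 9.28 and 21.1 CPM in WT and 31.2, 32.1, 39.0 and 29.4 CPM in Ucp1Δ/Δ. WT mouse 4 was highest in its group and lay below every Ucp1Δ/Δ mouse. The log2 change was 1.32 (SE 0.27, adjusted p = 0.00206, edgeR), a 2.50-fold difference.

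Itgb5 encodes β5, which pairs with αv to bind vitronectin and the bridging protein MFG-E8. It measured 15.2, 11.1, 14.2 and 10.6 CPM in WT and 18.3, 29.0, 33.2 and 26.0 CPM in Ucp1Δ/Δ. Ucp1Δ/Δ mouse 1 was the closest to WT, and the groups did not overlap. The log2 change was 1.05 (SE 0.23, adjusted p = 0.00414, edgeR), a 2.07-fold difference.

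Itgb1 encodes β1, the common partner of collagen, laminin and fibronectin receptors. It measured 108, 62.7, 79.9 and 92.5 CPM in WT and 119, 136, 126 and 121 CPM in Ucp1Δ/Δ, with 141 to 441 counts behind each value. WT mouse 1 came closest to the Ucp1Δ/Δ mice, and the groups did not overlap. The log2 change was 0.55 (SE 0.18, adjusted p = 0.041, edgeR), a 1.47-fold difference. Leaving out WT mouse 2 or 3, or any 1 of the 4 Ucp1Δ/Δ mice, gave adjusted p between 0.0701 and 0.117 in edgeR, and the call was also lost with all genes of at least 1 count fitted (adjusted p = 0.0578).

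Itga1 encodes α1, which pairs with β1 to bind collagen. It measured 69.8, 59.6, 92.1 and 86.5 CPM in WT and 81.1, 93.6, 141 and 122 CPM in Ucp1Δ/Δ, so Ucp1Δ/Δ mouse 1 lay inside the WT range. The log2 change was 0.50 (SE 0.21, adjusted p = 0.101, edgeR). Scaling by total counts alone gave 0.64 with an adjusted p of 0.0416 in edgeR, under a scaling that moved the median of all genes from -0.009 to 0.126.

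Itgav encodes αv, the partner of β5 and, in other complexes, of β1 and β3. It measured 12.1, 19.6, 16.9 and 8.04 CPM in WT and 11.9, 11.1, 16.2 and 9.8 CPM in Ucp1Δ/Δ, with the groups mixed. The log2 change was -0.23 (SE 0.28, adjusted p = 0.611, edgeR). Itga5, which encodes the α5 chain of the classical fibronectin receptor, had 0, 0, 1 and 1 counts in WT and 1, 1, 1 and 2 in Ucp1Δ/Δ. Both groups were at or under the floor, so no fold is given.

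By the exact permutation test over mice, p was 0.0286 for each of Itga6, Itgb5 and Itgb1, 0.114 for Itga1, 0.514 for Itgav and 0.229 for Itga5. Of the 10 genes, 8 were tested and 6 rose, beside 13.3% of all genes tested. The 3 leukocyte genes had a median log2 change of 5.33 and the 5 matrix genes 0.55, against -0.009 over all genes tested. These medians are not a like comparison. The 3 leukocyte genes entered the test through the Ucp1Δ/Δ libraries, which favours a high median, and Itgal was left out. The 5 matrix genes reached the count minimum in all 4 WT libraries.

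**Figure D2:**
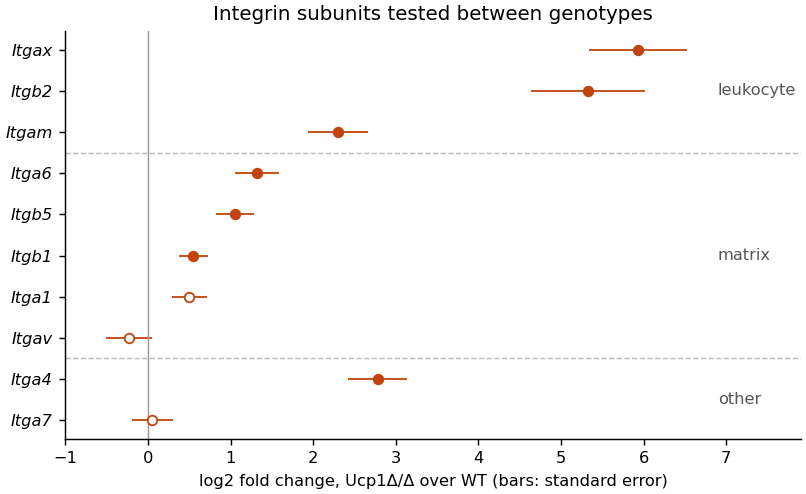
Log2 fold change between genotypes for the 10 integrin subunit genes that could be tested (8 of the 10 described and 2 others), with bars for the standard error (filled, adjusted p under 0.05; open, not). Itgax at 5.93 and Itgb2 at 5.33 rest on 2 WT counts each, and the matrix genes lie between -0.23 and 1.32.

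The contrast of the sets was described per mouse as the mean log2 CPM of the 4 leukocyte genes minus that of the 6 matrix genes. It was -3.29, -2.96, -3.62 and -3.10 in WT and -1.31, -0.74, -1.81 and -1.23 in Ucp1Δ/Δ. All Ucp1Δ/Δ mice were above all WT mice, and mouse 2 was highest. The means were -3.24 ± 0.286 and -1.27 ± 0.438 (SD, n = 4 each), a difference of 1.97 on the log2 scale that became 2.68 with a prior count of 0.5. The leukocyte mean was 2.57 higher in Ucp1Δ/Δ and the matrix mean 0.605 higher. No test is given for this contrast, because the genes were chosen with results known.

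As a share of all counts on the 26 integrin subunit genes, the β2 family (the 4 leukocyte genes and Itgad) held 49 of 2175 counts in WT and 551 of 4285 in Ucp1Δ/Δ. By mouse this was between 1.40% and 3.04% in WT and was 10.9%, 17.8%, 7.91% and 13.0% in Ucp1Δ/Δ. The highest WT interval ended at 5.05% and the lowest Ucp1Δ/Δ interval began at 6.32% (95% Clopper-Pearson, counting error only). The Itgb1 share was 36.0% ± 5.05 in WT and 31.9% ± 2.67 in Ucp1Δ/Δ. These shares are of counts and are not corrected for transcript length.

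**Figure D3:**
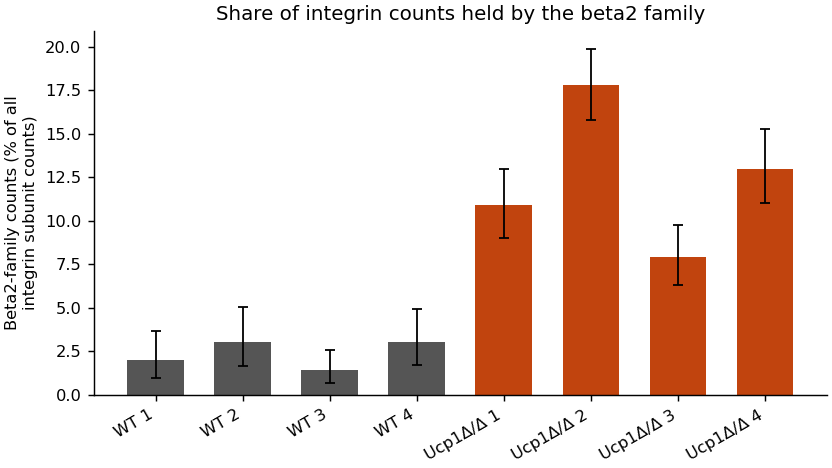
Share of all integrin subunit counts held by the β2 family in each mouse, in percent, with 95% Clopper-Pearson intervals as bars. The 4 WT mice lie between 1.40% and 3.04% and the 4 Ucp1Δ/Δ mice between 7.91% and 17.8%.

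The CD11c and CD11b genes were also compared within the β2 family, without correction for length or for the Itgam exon bases shared with Gm49368. Itgam reads lost there would raise the Itgax share. Itgax made up 41.9%, 41.6%, 47.3% and 48.5% of the summed Itgam and Itgax counts in Ucp1Δ/Δ, out of 74, 173, 55 and 101 counts. In WT it was 1 of 8, 0 of 11, 0 of 7 and 1 of 13 counts. Itgam and Itgax are neighbours on mouse chromosome 7 (mm10, 7:128062640-128118491 and 7:128129547-128150657, both on the plus strand), 11055 bases apart with no protein-coding gene between them. Itgad, the next gene, which encodes αD, begins 3718 bases beyond Itgax, and it had 3 counts in Ucp1Δ/Δ mouse 1 and 0 in every other mouse. Itgal lies on the same chromosome, 727501 bases before Itgam (7:127296260-127335138), and Itgb2 is on chromosome 10 (10:77530252-77565708). The matrix genes are spread over other chromosomes, with Itga6 and Itgav on 2 (2:71745616-71858416 and 2:83724397-83806916), Itgb1 on 8 (8:128685654-128733200), Itga1 on 13 (13:114953096-115101964), Itga5 on 15 (15:103344286-103366763) and Itgb5 on 16 (16:33829665-33949338).

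Of the other 16 integrin subunits, 2 could be tested. Itga4, the α4 chain of the VCAM-1 receptor, measured 1.01, 1.33, 0.994 and 1.51 CPM in WT and 7.02, 9.26, 7.87 and 9.80 CPM in Ucp1Δ/Δ, a log2 change of 2.78 (SE 0.36, adjusted p = 5.47e-05, edgeR). Its groups were far apart, it passed the count minimum through the Ucp1Δ/Δ libraries, and 8.04% of its exon bases overlap Cerkl on the other strand. Itga7, a laminin receptor chain of muscle, was at 15.8 ± 4.35 CPM in WT and 16.3 ± 3.66 CPM in Ucp1Δ/Δ, a log2 change of 0.05 (adjusted p = 0.917, edgeR). The 14 untested subunits were Itga2, Itga2b, Itga3, Itga8, Itga9, Itga10, Itga11, Itgad, Itgae, Itgb3, Itgb4, Itgb6, Itgb7 and Itgb8. Among them Itga9 had 0, 9, 1 and 3 counts in WT and 19, 10, 5 and 18 in Ucp1Δ/Δ.

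Of 9 genes for ligands of β2 integrins, 4 were tested, 1 rose and 1 fell, beside 13.3% and 7.64% of all genes tested, with a median log2 change of 0.20. C3, the source of the complement fragment that CR3 binds, measured 262, 390, 376 and 271 CPM in WT and 202, 178, 143 and 144 CPM in Ucp1Δ/Δ. Every Ucp1Δ/Δ mouse was below every WT mouse, and the log2 change was -0.96 (SE 0.19, adjusted p = 0.00185, edgeR). Thy1, which entered the test through the Ucp1Δ/Δ libraries, rose by 1.24 (adjusted p = 0.0279, edgeR). That call was lost without WT mouse 1, WT mouse 3 or Ucp1Δ/Δ mouse 2. The Thy1 groups overlapped, with WT mouse 2 at 8.89 CPM above Ucp1Δ/Δ mouse 4 at 8.09 CPM. F11r at 0.28 and Icam2 at 0.12 did not pass. Icam1, the main ligand of LFA-1, was not tested. It had 2, 5, 5 and 5 counts in WT and 10, 18, 12 and 14 in Ucp1Δ/Δ, without overlap in CPM. The fibrinogen genes Fga, Fgb and Fgg had no counts in any mouse.

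Of 24 genes for matrix integrin ligands, 20 were tested, 15 rose, none fell and 5 did not pass, beside 13.3% of all genes tested that rose, with a median log2 change of 1.90. Of the 15, 7 had fewer than 4 WT libraries at the count minimum and so entered the test through the Ucp1Δ/Δ libraries, among them Fn1, Vcam1, Tnc, Thbs1, Tgfb1 and Lama2. Mfge8, which encodes the bridging protein bound by αv integrins, measured 181, 102, 150 and 156 CPM in WT and 766, 760, 792 and 836 CPM in Ucp1Δ/Δ. The Ucp1Δ/Δ mice were close to each other and all far above WT, and the log2 change was 2.42 (SE 0.19, adjusted p = 6.15e-07, edgeR). The fibrillar collagen genes Col1a1 and Col3a1 rose by 2.39 and 2.74, and the basement membrane genes Nid1 and Lamb2 by 2.19 and 1.21 (adjusted p from 6.55e-06 to 5.32e-05, edgeR). Fn1 and Vcam1, ligands of α4β1 named after their values were seen, rose by 2.39 and 1.94. Vcam1 counts among the 15, although the α4 chain is not encoded by any of the 6 matrix genes. The laminin genes Lama4, Lamb1 and Lamc1 did not pass, at 0.02, 0.20 and 0.28, nor did Ltbp1 and Postn. Spp1, which encodes osteopontin, was at 0 in all WT mice and had 2, 8, 3 and 2 counts in Ucp1Δ/Δ, which is near the floor, so no fold is given.

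Of 31 adaptor and kinase genes that act on integrin tails or below them, 25 were tested, 14 rose, none fell and 11 did not pass, beside 13.3% of all genes tested that rose, with a median log2 change of 0.77. Of the 14, 6 entered the test through the Ucp1Δ/Δ libraries, among them Fermt3, Actn1, Apbb1ip and Syk. The 5 with the smallest adjusted p were Actn1, an actin crosslinker, at 2.79, Fyb, a leukocyte adaptor, at 2.17, Apbb1ip, which encodes the talin recruiter RIAM, at 3.06, Lims2, at 1.44, and the kinase Syk, at 2.29 (adjusted p from 8.17e-06 to 0.000194, edgeR). Kindlins bind β tails, and 2 of them are named here after their values were seen. Fermt3, the kindlin of blood cells, measured 2.02, 0.445, 0 and 1.01 CPM in WT and 9.13, 9.88, 5.80 and 8.94 CPM in Ucp1Δ/Δ, without overlap, with a log2 change of 3.38 (SE 0.53, adjusted p = 0.000284, edgeR). Fermt2, the widely made kindlin, was at 86.5 ± 14.9 and 81.9 ± 8.99 CPM, a log2 change of -0.08 (adjusted p = 0.804, edgeR). Chosen likewise after their values were seen, the talin gene Tln1 rose by 1.01, and Ilk and Vcl, at 0.15 and -0.08, did not pass. Genes on the other strand overlap their exon bases. Taf10 covers 76.7% of those of Ilk, Ap3m1 25.5% of those of Vcl and Creb3 3.67% of those of Tln1.

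**Figure D4:**
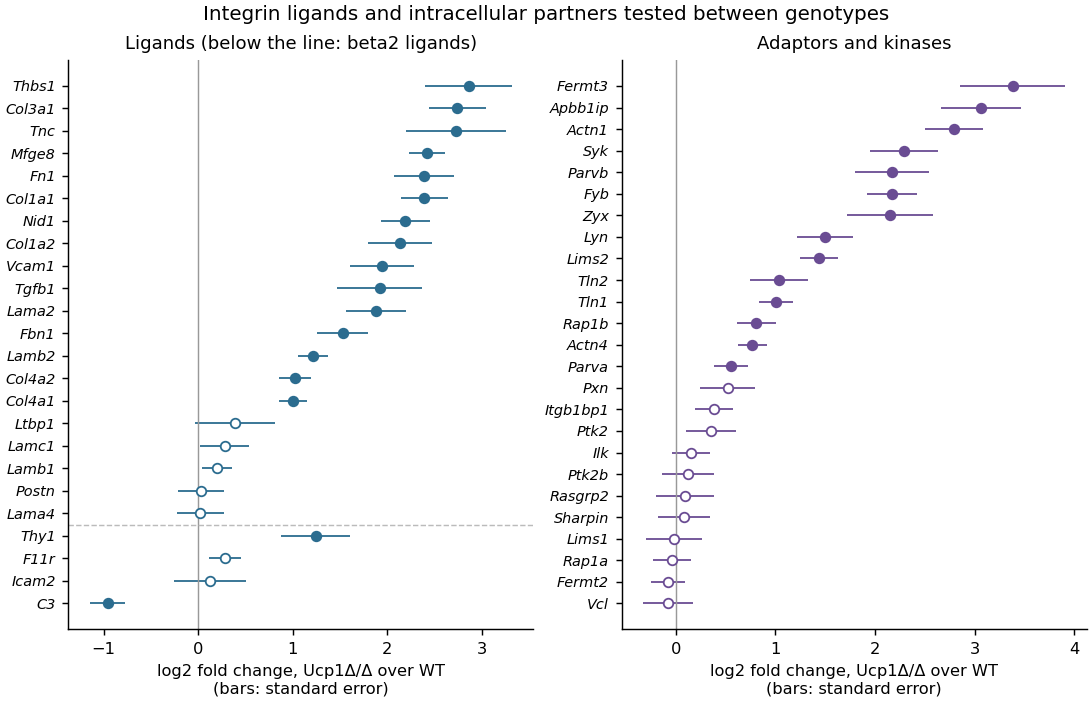
Log2 fold change between genotypes, with standard error bars, for the tested genes of integrin ligands (left, with the β2 ligands below the dashed line) and of adaptors and kinases (right); filled points have an adjusted p under 0.05. C3 at -0.96 is the filled point left of 0, and Fermt3 at 3.38 and Fermt2 at -0.08 lie at or near opposite ends of the right panel.

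The summed pan-leukocyte and macrophage markers were higher in every Ucp1Δ/Δ mouse than in every WT mouse, as was the leukocyte integrin sum. Within Ucp1Δ/Δ the sums did not rank the mice alike. In mice 1 to 4 the leukocyte integrin sums were 35.5, 74.7, 33.2 and 53.2 CPM. The macrophage sums were 817, 909, 592 and 619 CPM. The 4 pan-leukocyte markers all rose, beside 13.3% of all genes tested. All 4 had fewer than 4 WT libraries at the count minimum and so entered the test through the Ucp1Δ/Δ libraries. Their summed level was 8.95 to 23.1 CPM in WT and 104 to 173 CPM in Ucp1Δ/Δ. Ptprc, which encodes CD45, was at 6.06 ± 2.06 CPM in WT and 47.2 ± 2.46 CPM in Ucp1Δ/Δ (adjusted p = 7.65e-07, edgeR). Of 8 macrophage markers 7 were tested and 6 rose, beside 13.3% of all genes tested, and their sum was 83.2 to 110 CPM in WT and 592 to 909 CPM in Ucp1Δ/Δ. The log2 changes of Cd68, Csf1r and Adgre1 were 4.64, 2.83 and 2.80. Of the 6 that rose, Cd68, Adgre1 and Mrc1 entered the test through the Ucp1Δ/Δ libraries.

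None of the T cell, B cell, NK cell and neutrophil markers reached the count minimum. The 6 T cell markers summed to 2.32 to 4.52 CPM in WT and 4.26 to 11.2 CPM in Ucp1Δ/Δ. The 4 NK cell markers summed to 1.33 to 6.67 and 4.56 to 10.2 CPM. Among these, Klrb1c had 1, 1, 3 and 1 counts in WT and 9, 11, 5 and 6 in Ucp1Δ/Δ, without overlap in CPM. The groups overlapped for Ncr1, Nkg7 and Gzma. The 4 B cell markers summed to at most 1.01 and 1.28 CPM, with Cd79a at 0 in every mouse. The 6 neutrophil markers summed to 1.01 to 7.56 CPM in WT and 1.70 to 5.87 CPM in Ucp1Δ/Δ, with Ly6g and Mpo at 0 in every mouse. Of the 5 dendritic cell markers only Zbtb46 could be tested (log2 change -0.12, adjusted p = 0.792, edgeR), and it held nearly all of their summed 16.6 to 28.8 CPM in WT and 15.4 to 26.1 CPM in Ucp1Δ/Δ. The other 4 were low, with Xcr1 at 1 count in all of WT and 12 in all of Ucp1Δ/Δ, Clec9a at 2 and 7, Flt3 at 1 and 4, and Cd209a at 1 and 2. Whether the leukocyte integrin levels per cell differed was not tested.

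Beside the matrix genes, the 5 endothelial markers summed to 132 to 161 CPM in WT and 174 to 188 CPM in Ucp1Δ/Δ, and none of the 5 passed the test. All 5 fibroblast markers rose, with sums of 247 to 323 CPM in WT and 544 to 878 CPM in Ucp1Δ/Δ. Of 5 mural markers 2 rose, Pdgfrb and Acta2, and the 5 summed to 183 to 280 and 288 to 326 CPM. Of all genes tested, 13.3% rose. Among these calls Pdgfra, Lum and Pdgfrb entered the test through the Ucp1Δ/Δ libraries, and the groups overlapped for Pdgfra and Pdgfrb. Brown adipocyte markers summed to 12700 to 20400 CPM in WT and 8840 to 13200 CPM in Ucp1Δ/Δ. Of these 6 genes Cidea, Adipoq and Plin1 fell, beside 7.64% of all genes tested, and Ucp1 and Fabp4 did not pass. Dio2, which entered the test through the Ucp1Δ/Δ libraries, rose (log2 change 1.45, adjusted p = 0.0231, edgeR). The part of these markers in the matrix integrin values was not tested.

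**Figure D5:**
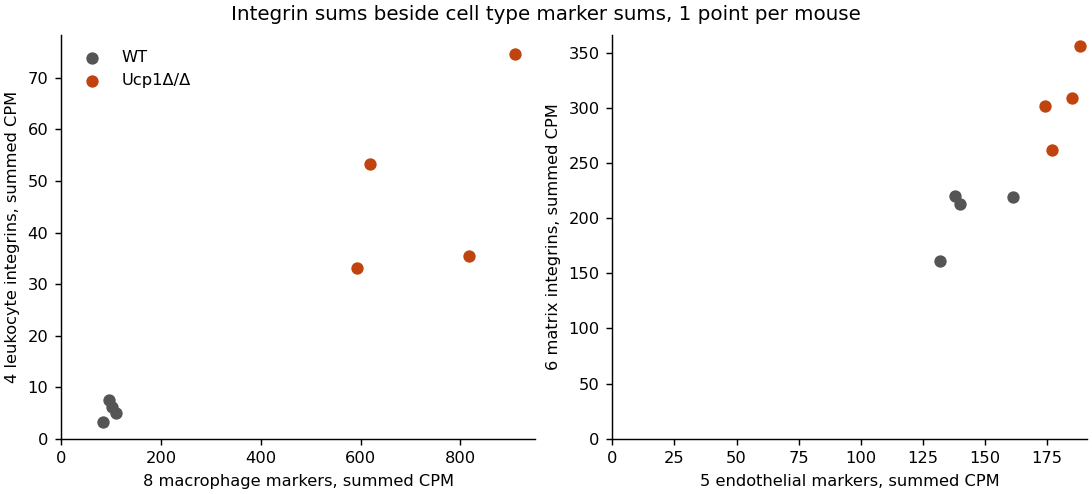
Summed CPM of the 4 leukocyte integrin genes against 8 macrophage markers (left) and of the 6 matrix integrin genes against 5 endothelial markers (right), 1 point per mouse (grey, WT; orange, Ucp1Δ/Δ). The leukocyte sum runs from 3.31 to 7.54 CPM in WT and from 33.2 to 74.7 CPM in Ucp1Δ/Δ, and the matrix sum from 161 to 220 CPM and from 262 to 356 CPM.

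The genes whose pattern was most like that of Itgb2 were sought among 6403 tested genes of at least 10 CPM, by the root mean square difference in log2 CPM over the 8 mice after each gene was centred on its mean. They were Spi1, which encodes PU.1, at 0.29, Cd300ld at 0.30, S100a4 at 0.31, Cybb, a subunit of the phagocyte NADPH oxidase, at 0.34, and Nckap1l, an actin regulator of blood cells, at 0.37. Their log2 changes lay between 3.14 and 3.99, against a fitted 5.33 for Itgb2. With 2 counts of Itgb2 in all of WT, its log2 CPM there was set largely by the prior count of 2. The ranking for Itgb2 therefore depends on that prior. For Itgb1 the same measure gave Rasa1 at 0.09, Dync1h1 at 0.10, Cnnm3 at 0.11, and Sdad1 and Fbxw7 at 0.12, with log2 changes of 0.40 to 0.60. The measure describes likeness over these mice, which fall into 2 genotypes, and carries no test.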

How the data were processed

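RNA of BAT was made into NEGEDIA Digital mRNA-seq libraries and sequenced single-end. The authors deposited raw counts per Ensembl gene and log2 values; the latter equal log2(count/factor + 1) of those counts and served as an alternative only. The study's methods name bbduk, STAR, HTSeq and DESeq2 on mm10, whereas the submitters' processing notes list Trimmomatic, HISAT2 and DESeq2 with GRCm38; strandedness and annotation release are not given in the sources used here. Symbols and positions came from GENCODE (mm10), and 30934 of 31053 genes had a symbol.

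Counts were filtered with filterByExpr, scaled by TMM on the full library totals and tested with edgeR 4.0.16 (quasi-likelihood, genotype only, Benjamini-Hochberg over 8930 genes, R 4.3.3). CPM used TMM-scaled totals, log2 CPM a prior count of 2, and SE was the log2 change divided by the root of F. The script was tested on simulated data. Alternatives used DESeq2 1.42.0, limma 3.58.1, other scalings and filters, a replicate block and each mouse left out. Replicate pairs differed beyond counting noise (chi-square per degree of freedom 4.69 to 23.2). Genes were named as the 10 members, other subunits, the 5 smallest adjusted p per list plus opposite calls, markers, and the 5 most alike; any further ligand, adaptor or kinase gene named was chosen after its values were seen. Members and lists were chosen with earlier results of these data known.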

Additional observations from a re-analysis of the deposited data

How the results depend on the processing

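No direction reversed for the 8 tested members in any setting. With at least 10 counts in every mouse, 1195 genes were called in place of 1872, the called-higher counts were 0 for other integrin subunits, 0 for β2 ligands, 9 (in place of 15) for matrix ligands and 8 (in place of 14) for adaptors, and no leukocyte member could be tested; with fewer genes tested these counts fall. With at least 1 count in any mouse, 2 other subunits and 2 β2 ligands were called higher in place of 1 each. Leaving out 1 mouse gave 1345 to 2156 called genes, 3 leukocyte members in each fit, 2 to 3 matrix members, 0 to 2 β2 ligands (0 without WT mouse 1, WT mouse 3 or Ucp1Δ/Δ mouse 2), 14 to 15 matrix ligands, 13 to 15 adaptors, and a leukocyte minus matrix difference of 1.79 to 2.15. That difference was 2.68 with a prior count of 0.5. Taking library sizes over tested genes only, chosen after seeing the data, changed no call among the members and gave 1872 genes.

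Same-numbered mice were different animals, and the correlations of their deviations were -0.0873, -0.196, 0.304 and 0.241. The signs were mixed, and without batch labels these values cannot show whether same-numbered mice shared handling. With the replicate block 1718 genes were called, 3 leukocyte and 2 matrix members rose, and Itgb1 was at 0.58 (adjusted p = 0.0546, edgeR). Libraries of 2017697 to 3115956 counts leave Itgal, Itga5 and 14 other subunits untested.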

Other observations

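On the log2 CPM scale, no mouse passed Dixon's 95% value for the gap to its nearest neighbour, over 22 groups of 4 mice for the 10 genes and the leukocyte minus matrix contrast, where about 1.1 would by chance. Skeletal muscle markers varied between mice of both genotypes, with sums of 1040, 73.8, 16.2 and 525 CPM in WT and 192, 1360, 46.0 and 648 CPM in Ucp1Δ/Δ. None of the 5 passed the test between genotypes.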
